A study of Oryzias minutillus with 2 samples.

Results

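The abundant clusters that stood far higher in the female than in the male of the Thai medaka, Oryzias minutillus, were examined across 1 whole-body RNA-seq library of each sex. A cluster is a unit of a transcriptome assembled without a reference genome. Its level is given in FPKM, a read density scaled to cluster length in kilobases and to 1000000 mapped fragments of the library. Clusters were taken when the female library gave at least 100 FPKM and log2(female FPKM + 1) exceeded log2(male FPKM + 1) by at least 2, which is 4-fold on that scale. This chose 163 of 73551 clusters, or 0.222%. The clusters were thus chosen by the same male and female FPKM values that are described here, so their levels and differences below are descriptions and carry no test.

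The male group is 1 male and the female group 1 female whole-body sample, both labelled as from Thailand and both treated with DNase I. Neither carries any other treatment in its labels. Age, reproductive state, tank or field origin and the number of animals behind each sample do not appear in the sources used here. With 1 library per sex there is no spread between animals, and no value below has a replicate error or a p-value.

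As background, a mature female teleost carries ovaries in which growing oocytes store maternal messenger RNA and proteins for the embryo. In ricefishes and other teleosts, the female liver also makes vitellogenins, the yolk protein precursors, under the control of oestrogen. In medaka, the liver likewise makes choriogenins, the precursors of the egg envelope. A whole-body library mixes the RNA of all these organs, so fewer cells of a type and less RNA per cell cannot be told apart. The deposited identifiers are assembly numbers that the files do not pair with gene names or sequences. None of the clusters can therefore be assigned to yolk, egg envelope, oocyte or any other function here, and the labelled tissue could not be checked against marker genes.

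Summed over the set, the 163 clusters held a far larger share of the female than of the male library. Their summed level was 128752 FPKM in the female against 2961 FPKM in the male library, a ratio of 43.5. These sums made up 12.8% of the female and 0.293% of the male summed FPKM. Every share of a library given here is such a share of summed FPKM and not of its reads. Among the 978 clusters of at least 100 FPKM in the female library, 16.7% passed the 4-fold difference and so became members. Of all clusters, 2.32% passed it. Clusters of very low female level cannot reach 4-fold on the scale of the rule, so this share is low in part by construction. Among clusters from 3 to below 10 FPKM in the female library it was 6.84%. From 10 to below 30 FPKM it was 6.51%, and from 30 to below 100 FPKM 8.25%. The other 815 clusters of at least 100 FPKM in the female library held 53.7% of the female and 63.4% of the male summed FPKM. Members therefore supplied 19.2% of the summed level of all clusters of at least 100 FPKM in the female library.

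**Figure D1:**
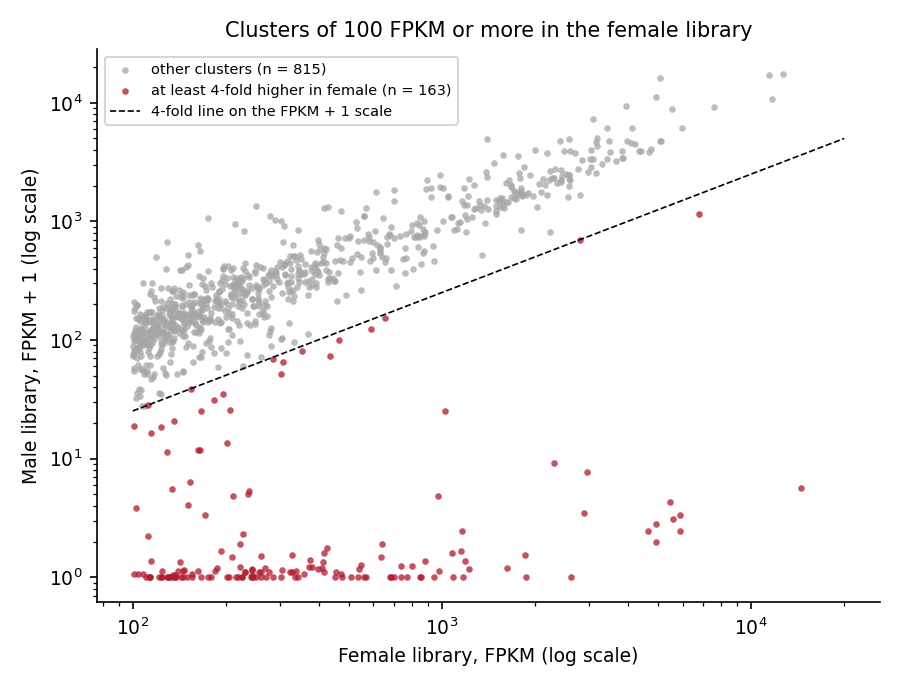
Each point is 1 of the 978 clusters of at least 100 FPKM in the female library, with its female FPKM on the horizontal and its male FPKM + 1 on the vertical axis, both on log scales. The 163 clusters chosen (red) lie below the dashed 4-fold line, and most of them lie near the floor of the plot, 116 below 1 FPKM in the male library, while 815 others (grey) follow a band near equal levels.

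The cluster with the highest female level of all belonged to the set. Cluster-4703.23517 had 14463.57 FPKM in the female library and 4.62 FPKM in that of the male, where 18481 clusters had a higher value. It alone supplied 1.44% of the summed female FPKM. The next, Cluster-4703.21475, behaved differently, with 6802.59 FPKM in the female against 1145.15 FPKM in the male library. It ranked 6 by abundance in the female against 146 in the male library, and its female to male ratio was 5.94 against 3131 for the first. These identifiers, the 2 with the highest female level, are the only ones printed, since they name no gene.

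Below these came 7 clusters of a similar kind, between 4637.72 and 5897.74 FPKM in the female library. The third had 5897.74 FPKM in the female against 2.34 in the male library, the fourth 5885.42 and 1.44, and the fifth 5586.95 and 2.08. The sixth had 5448.85 FPKM in the female against 3.34 in the male library, the seventh 4932.22 and 0.97, the eighth 4913.12 and 1.83, and the ninth 4637.72 and 1.44. Together with the first, these clusters (8 in all, leaving out the second) held 5.14% of the female library. Their male levels spanned 0.97 to 4.62 FPKM, and their female to male ratios 1631 to 5085. These spans depend on leaving out the second, which had 1145.15 FPKM in the male library. A step followed, to 2949.63 FPKM in the female library for the tenth cluster, which had 6.74 FPKM in the male and a ratio of 438.

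Ranks 11 to 20 ran from 2882.24 to 1169.34 FPKM in the female library and were less alike in the male. The 11th had 2882.24 FPKM in the female against 2.51 in the male library. The 12th had 2800.26 and 697.23, the second of the abundant clusters with a high male level. The 13th, 15th and 20th, at 2606.23, 1874.06 and 1169.34 FPKM in the female library, were each listed at 0 in the male. The 14th had 2303.42 FPKM in the female against 8.26 in the male library, and the 16th 1849.52 and 0.55. The 17th, at 1623.62 FPKM in the female against 0.19 in the male library, had the highest ratio of any member with a male value above 0, at 8545. The 18th had 1225.17 and 0.18, and the 19th 1191.20 and 0.36. Of the 20 most abundant members, 18 were thus below 10 FPKM in the male library, and 3 of these were listed at 0 there.

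Abundance was spread unevenly over the set. The female level ran from 100.68 to 14463.57 FPKM, a 144-fold range, with a median of 260 FPKM and quartiles of 155 and 613 FPKM. The 10 most abundant members held 47.8% of the summed female level of the set, 11 members reached 50% of it and 86 reached 90%. The first 20 held 8.04% of the whole female library and the first 50 held 10.3%. This unevenness was close to that of the other clusters of at least 100 FPKM. The Gini coefficient of the female levels, which is 0 for equal levels and approaches 1 when a single cluster holds everything, was 0.66 in the set and 0.63 in the 815 others. The median of the others was 222 FPKM and their highest value 12707 FPKM in the female library. The members thus spanned a similar range of female levels as other abundant clusters, with the lower end set by the rule. Their upper end was higher, with a 95th percentile of 4469 FPKM against 2717 FPKM in the others. They stood apart mainly in the male values, as the rule requires.

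**Figure D2:**
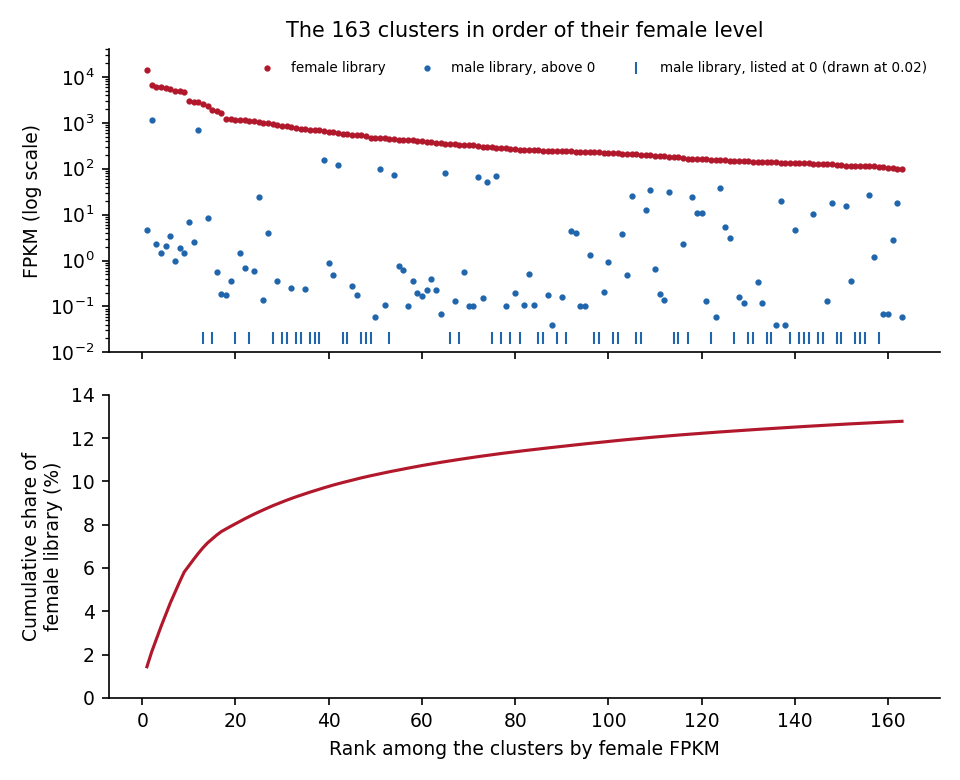
The upper panel plots the 163 clusters in order of their female FPKM (red) with the male FPKM of the same cluster (blue points; the 55 listed at 0 are ticks drawn at 0.02), on a log scale. The lower panel adds up their share of the summed female FPKM, which reaches 6.10% after 10 clusters and 12.8% after all of them.

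Members were spread through the upper ranks of the female library. They were 5 of its 10 most abundant clusters, 9 of its 25, 11 of its 50, 16 of its 100 and 98 of its 500. The last of them ranked 973. Members were 16.7% of the 978 clusters of at least 100 FPKM in that library. The count among the 100 most abundant was near that share, and those among the 10 and the 25 were above it. In the male library, 0 members were among the 100 most abundant clusters, 2 were among the 500 and 5 among the 1000.

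The male level was close to the lower end of the listed values for most of the set. In the male library, 55 members were listed at 0, 9 lay above 0 and below 0.1 FPKM, 52 from 0.1 to below 1, 22 from 1 to below 10, 21 from 10 to below 100 and 4 at 100 FPKM or more. Thus 116 of 163 (71.2%) were below 1 FPKM. Such levels occurred outside the set too, but most clusters lay higher, since a member at 0.97 FPKM in the male library ranked 48426 of 73551 there. None of the 815 other clusters of at least 100 FPKM in the female library was below 26.77 FPKM in the male, which follows from the rule. A listed 0 was found for 5.62% of clusters of at least 100 FPKM in the female library, all of them members because the rule takes every such cluster, and for 11.1% of all clusters. How many reads lie behind a library is unknown, so a listed 0 has no known detection limit and does not show absence.

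Nearly all of the male signal of the set came from a few clusters. The 25 members of at least 10 FPKM in the male library supplied 97.0% of the summed male level of the set, and the 2 highest, at 1145.15 and 697.23 FPKM, supplied 62.2%. The remaining 138 members added up to 89.43 FPKM in the male and 112582 FPKM in the female library. This was 0.00886% of the male and 11.2% of the female summed FPKM. Most of the share that the set held in the female library therefore belonged to clusters below 10 FPKM in the male.

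Members listed at 0 in the male library were not the least abundant ones in the female. Their female levels ran from 110.71 to 2606.23 FPKM with a median of 242 FPKM, against a median of 294 FPKM for the 108 members above 0 in the male library. They held 17.9% of the summed female level of the set. By female level, 21 of 55 members from 100 to below 200 FPKM were listed at 0, 18 of 60 from 200 to below 500, and 12 of 23 from 500 to below 1000. Above that, 4 of 19 members from 1000 to below 5000 FPKM and 0 of 6 above 5000 FPKM were listed at 0. The share listed at 0 thus did not fall steadily with the female level, being 52.2% in the class of 500 to 1000 FPKM and 38.2% in the lowest class.

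The members fell into a small part near the 4-fold limit and a much larger upper group, with few clusters between. Among the 978 clusters of at least 100 FPKM in the female library, 391 had a log2 difference from -1 to below 0 and 316 from 0 to below 1. Counts then fell to 55 from 1 to below 2, 19 from 2 to 3, 5 from 3 to 4 and 3 from 4 to 5. The lower members thus continued the decline of the other abundant clusters, and the rule cut it at 2. Beyond the low point from 4 to 5 the counts rose again, to 7 from 5 to 6, 18 from 6 to 7 and 47 from 7 to 8. They then fell to 30, 19, 11 and 4 in the next 4 unit steps. In all, 136 of the 163 members (83.4%) passed a log2 difference of 5, which is 32-fold on the FPKM + 1 scale. So did 13.9% of clusters of at least 100 FPKM in the female library and 0.306% of all clusters. Clusters of low female level cannot reach 32-fold on that scale, so the share over all clusters is low in part by construction. The position of the upper group is partly set by the pseudocount, since a cluster of 100 FPKM listed at 0 in the male library has a difference of 6.66 and cannot have a larger one. Of the 129 members above a difference of 6, 55 were listed at 0 in the male library.

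**Figure D3:**
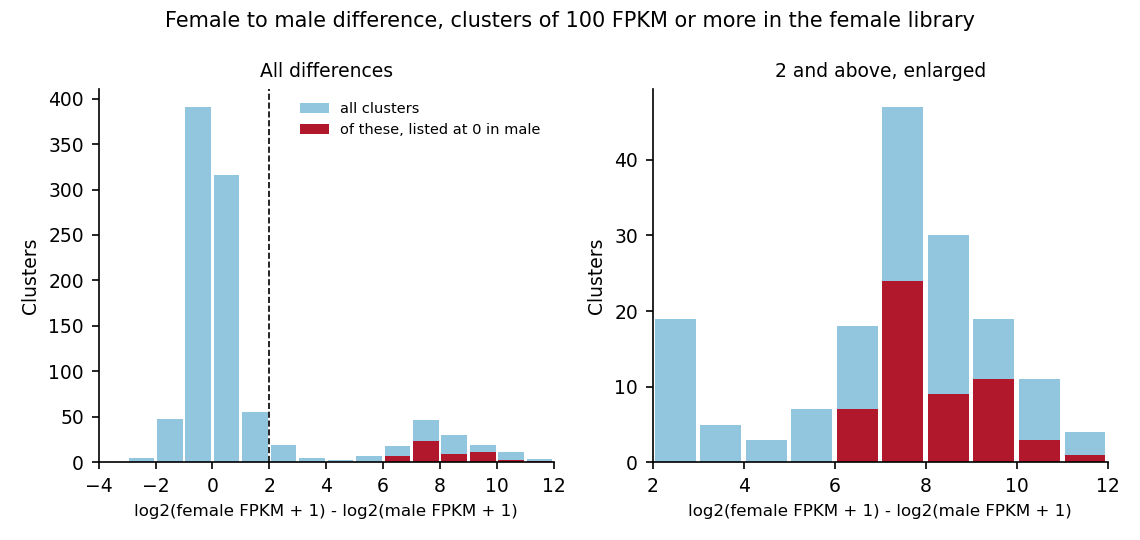
Bars count clusters of at least 100 FPKM in the female library by their log2(FPKM + 1) difference, female minus male, in steps of 1, with those listed at 0 in the male library in red. The left panel shows all 978 clusters with the 4-fold limit dashed; the right panel enlarges the members, with 3 clusters at the low point from 4 to 5 and 47 at the peak from 7 to 8.

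By tiers of fold on the FPKM + 1 scale, the largest differences carried most of the abundance. From 4-fold to below 8-fold there were 19 members, with a median of 285 FPKM in the female against 51.0 FPKM in the male library, and they held 1.42% of the female library. From 8-fold to below 32-fold there were 8, with medians of 158 and 10.5 FPKM and 0.124% of the female library. From 32-fold to below 128-fold there were 25, with medians of 124 and 0.16 FPKM and 0.455% of the female library. From 128-fold to below 512-fold there were 77, with medians of 256 and 0.07 FPKM and 2.76% of the female library. At 512-fold or more there were 34, with medians of 1118 and 0.185 FPKM, and they held 8.02% of the female library. A member must reach high female levels to enter the last tier, so that its abundance is high follows in part from the scale.

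For the 108 members above 0 in both libraries, the ratio of the deposited values could be taken without a pseudocount. It ran from 4.02 to 8545 with a median of 1105 and quartiles of 40.5 and 2464. Among the 81 of them past 32-fold on the FPKM + 1 scale, the median ratio was 1631, and 44 had a ratio within 2-fold of that median in either direction. Their male level was at the median 0.0613% of the female level and ran from 0.04 to 24.36 FPKM. The median ratio of members above 0 was 82.8 from 100 to below 200 FPKM in the female library, 1257 from 200 to below 500, 1957 from 500 to below 1000, 1828 from 1000 to below 5000 and 2603 above. These medians leave out the members listed at 0, for which no ratio can be given. The classes also differed in their mix of small and large differences, so the medians do not compare like with like. Counting those listed at 0, 40 of 55, 52 of 60, 21 of 23, 18 of 19 and 5 of 6 members passed 32-fold in the same 5 classes.

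Most members with a substantial male level lay not far past the limit. This follows in part from the selection. The rule removes smaller differences, and a male level of at least 10 FPKM limits the ratio at a given female level. Of the 25 with at least 10 FPKM in the male library, 19 had a ratio below 8, the median ratio was 5.94 and the highest was 42.1, for a cluster with 1024.42 FPKM in the female against 24.36 in the male library. Some of these ratios lay in 2 short runs, a pattern picked out after the values were seen. The remaining ratios of the 25 ran from 6.84 to 42.1, and the 4-fold limit sets where the first run starts. The first run held 9 clusters between 4.02 and 4.80, and the second held 6 between 5.68 and 6.05, with none between 4.80 and 5.68. The second run covered very different levels. Its most abundant cluster had 6802.59 FPKM in the female against 1145.15 in the male library, and its least abundant had 100.99 and 17.79. Its other members had 434.27 and 72.88, 302.29 and 50.96, 195.22 and 33.94, and 183.52 and 30.32 FPKM in the female and male library. Whether clusters of like ratio come from related sequences was not tested.

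At the limits of the rule, the clusters inside and outside were alike. The 3 members with the smallest differences had 2800.26 FPKM in the female against 697.23 in the male library, 154.79 and 37.72, and 112.41 and 27.13, with differences of 2.004, 2.008 and 2.011. The nearest clusters left out had 109.40 FPKM in the female against 26.77 in the male library, 106.89 and 26.97, and 226.94 and 58.96, with differences of 1.99, 1.95 and 1.93. At the level limit, the lowest members had 100.68 FPKM in the female against 0.06 in the male library, 100.99 and 17.79, and 102.46 and 2.85. The nearest left out had 99.48 and 0.62, 99.19 and 0.19, and 98.06 and 21.68 FPKM. Their differences were 5.95, 6.396 and 2.13, so clusters of both large and small difference also lay just below 100 FPKM.

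The other abundant clusters gave the level of comparison. Over the 815 others of at least 100 FPKM in the female library, the median log2 ratio of female to male was -0.05, with quartiles of -0.44 and 0.27. Of these, 707 (86.7%) differed by less than 2-fold, and none was below 26.77 FPKM in the male library. That none of them is low in the male library follows from the rule, which takes all clusters with such a difference. With FPKM scaled to equal sums of the clusters outside the set, the median was 0.15, on the female side. With a weighted trimmed mean as scaling it was 0.16, so its side depends on the scaling.

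FPKM is relative to the mapped fragments of a library, so the sums outside the set were also compared. Without the 163 clusters, the summed FPKM was 879073 in the female against 1006950 in the male library. Bringing these to the same sum raises every female value by 14.5%, or 0.20 on the log2 scale. A weighted trimmed mean of the log2 ratios of female to male was -0.21, of nearly the same size. It was taken over clusters above 0 in both libraries after trimming, with weights from FPKM in place of read counts. The median over the 7136 clusters outside the set with at least 10 FPKM in both libraries moved from -0.02 as deposited to 0.17 under the equal sums. The median of these clusters was thus nearer to equality as deposited. With the equal sums, 187 clusters met the rule. All 163 were among them by construction, since raising every female value can only add clusters.

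The same rule with the sexes exchanged gave a set of another shape. It took 33 of the 903 clusters of at least 100 FPKM in the male library, or 3.65%. Their median was 297 FPKM in the male and 29.8 FPKM in the female library, whereas the medians of the female-higher set were 260 FPKM in the female against 0.16 in the male library. Of the 33, 5 (15.2%) were at least 32-fold apart, against 136 of 163 on the female side. The other library was below 1 FPKM for 4 of the 33 and for 116 of the 163. At 1000 FPKM or more there were 2 of the male-higher and 25 of the female-higher clusters, with highest levels of 1340.87 FPKM in the male and 14463.57 FPKM in the female library. These counts describe 1 library of each sex, and the difference between them could not be tested.

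The share of clusters past a 4-fold female excess changed with their female level. It was 6.84% from 3 to below 10 FPKM, 6.51% from 10 to below 30 and 8.25% from 30 to below 100. Within the range of the set it was 15.2% from 100 to below 300 FPKM (88 of 580), 22.0% from 300 to below 1000 (50 of 227) and 14.6% at 1000 FPKM or more (25 of 171). The shares past a 4-fold male excess, by male level, were 6.57%, 5.36%, 3.39%, 3.26%, 6.33% and 1.25% in the same 6 classes. Below 30 FPKM the shares of the sexes were thus within 1.15 percentage points of each other, and from 30 FPKM upward the female share was the higher in each class.

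**Figure D4:**
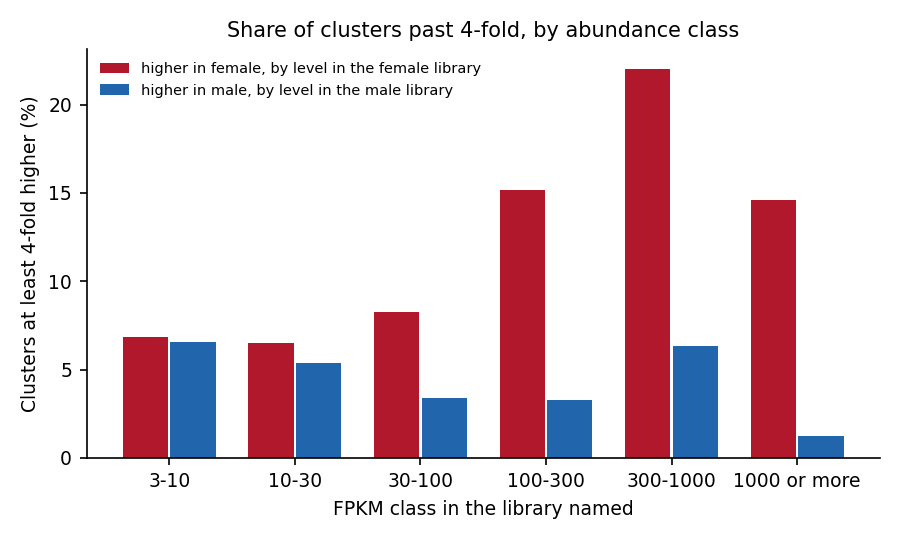
Bars give the percent of clusters past 4-fold toward the female by their female FPKM class (red), and toward the male by their male FPKM class (blue), on the log2(FPKM + 1) scale. The pair of bars is close at 3 to 10 FPKM (6.84% and 6.57%), and the red bar is highest at 300 to 1000 FPKM, at 22.0%. In the lowest class the pseudocount holds the difference down.

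The identifiers placed the members among the other abundant clusters. Each consists of a first and a second number, and no source says what they stand for. The first number 4703 is that of 52612 of the 73551 clusters (71.5%). All 163 members share it, and so do all 815 other clusters of at least 100 FPKM in the female library and all 903 of that level in the male library. The second numbers of the members had a median of 23012 and quartiles of 21403.5 and 24393, and those of the 815 others had a median of 22975 and quartiles of 21942 and 24243. A second number next to that of a member was held by 8 members (4.91%) and by 36 of the others (4.42%). Within a distance of 10 these were 36.8% and 30.6%.

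The 8 members with adjoining numbers made up 4 pairs, and within 3 of these the ratios could be compared. The most abundant member, with 14463.57 FPKM in the female against 4.62 in the male library, adjoined the ninth, with 4637.72 and 1.44, and their ratios were 3131 and 3221. Another pair had 799.71 and 735.21 FPKM in the female library and 0.25 and 0.24 FPKM in the male, with ratios of 3199 and 3063. The third pair had 655.09 and 306.25 FPKM in the female and 152.74 and 64.55 FPKM in the male library, with ratios of 4.29 and 4.74. In the last pair, both members were listed at 0 in the male library, with 226.10 and 1874.06 FPKM in the female. In the 3 pairs with ratios, the members thus lay close in ratio while their female levels were up to 3.12-fold apart. How often members without adjoining numbers lie as close in ratio was not counted. On a much wider measure, 44 of the 81 members above 0 in the male library and past 32-fold had a ratio within 2-fold of their median. The third pair is not among these 81. Whether the members of a pair are pieces of the same transcript was not tested.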

How the data were processed

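RNA of 1 male and 1 female whole-body sample was sequenced with an Illumina HiSeq 2500, as the series' design text states, which speaks of triplicates; the labels list 1 sample per sex. CASAVA 1.8 is named in the submitters' processing notes. No source used here names the assembler, aligner or counting tool. The authors deposited 1 FPKM value per cluster, per the file headers, with 2 decimals. Each sample's 2 files were identical, and 1 was used. The female values sum to 1007824 and the male values to 1009910. Depth is unknown, so no counting interval can be given.

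Files were joined on the cluster identifier and compared as deposited with a pseudocount of 1, using Python 3.11.15, numpy 2.4.6 and pandas 2.3.3. A fold on this scale understates the difference of low clusters. The code was tested on data simulated from the male values. That test checked the working of the code and not the choice of members. The named clusters are the 2 members with the highest female FPKM, and the first 20 were described by rank. For the weighted trimmed mean, 30% of the ratios and 5% of the mean levels were trimmed from either end. Its weights used FPKM in place of read counts, so they do not measure counting precision. Alternatives were other pseudocounts, level and fold limits, scalings and the exclusion of clusters listed at 0. The members, tiers and classes were chosen with earlier results of these data known.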

Additional observations from a re-analysis of the deposited data

How the results depend on the processing

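The number of members stayed within 1.5 times of 163 under the other pseudocounts, fold limits and scalings (144 to 218). The number past 32-fold stayed within 1.5 times of 136 under the same settings (101 to 151). Part of this is fixed by construction. The fold limits used cannot change the count past 32-fold. The scalings used all raise the female values, so they can only keep or raise both counts. A female minimum of 50 FPKM gave 243 members with 80 listed at 0 in the male library. A minimum of 200 FPKM left 108 members, 34 of them listed at 0 in the male library. Clusters above 0 in both libraries were 108, with 81 past 32-fold; a count listed at 0 has no meaning there. The share of the female library held by the set was 12.79% with a pseudocount of 0.1, 12.4% with 5, 13.4% and 12.01% with minimums of 50 and 200 FPKM, 14.6% and 11.4% with log2 limits of 1 and 3, 13.1% with the trimmed mean, 12.81% with the median of clusters of at least 10 FPKM in both libraries set to 0, and 10.5% for clusters above 0 in both. The median male level was 0.14 FPKM with a pseudocount of 5, 0.18 and 0.185 with minimums of 50 and 200 FPKM, 0.60 and 0.11 with log2 limits of 1 and 3, 0.18 with the trimmed mean, 0.165 with the median set to 0, and 0.60 for clusters above 0 in both. Scaling to equal sums of clusters outside the set, chosen after seeing the data, gave 13.1% and 0.18 FPKM. The median log2 ratio of female to male of the other abundant clusters, -0.05 as deposited, was -0.025 with the median set to 0 and turned to 0.16 with the trimmed mean and 0.15 with equal sums, shifts that these scalings apply to every cluster. No paired analysis was possible because a single library stands for either sex, and no library could be left out for that reason. Without read counts, how far depth limits the male values is unknown.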
